A study of Mus musculus with 6 samples.

Results

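The genes described here belong to the cyclic AMP pathway that controls meiotic prophase arrest in the mouse oocyte. They are called arrest genes below for short, although Pde3a encodes an enzyme that breaks cyclic AMP down. They were taken by symbol from the deposited gene table: the receptors Gpr3 and Gpr12, the adenylyl cyclases Adcy3 and Adcy9, the phosphodiesterase Pde3a, the protein kinase A subunits Prkaca, Prkacb, Prkar1a and Prkar2a, and the connexin Gja4. All 10 were found among its 55291 rows, and all 10 passed the filter on low counts that left 18353 tested genes. Fully grown oocytes were compared between wild-type females (WT) and females labelled Gdf9-cre Nat10 cKO, in which a Cre driven by the oocyte gene Gdf9 acts on a conditional allele of Nat10, the RNA cytidine acetyltransferase. Each group had 3 libraries, each library pooled 10 oocytes from mature females treated with PMSG, a gonadotropin that stimulates follicle growth, and polyadenylated RNA was read by Smart-seq2. Collection began 32 or 36 h after the injection, depending on the label, and ended by 48 h. The labels read here name no strain, exact age or floxed alleles in the WT females. Nothing in them says that the libraries came from separate females, so the p-values measure the spread between these libraries.

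As background, GPR3 is a receptor that signals without a known ligand being required, and through the stimulatory G protein it keeps adenylyl cyclase active in the oocyte membrane. GPR12 is its close relative. The resulting cyclic AMP releases the catalytic subunits of protein kinase A from the regulatory subunits, and the kinase keeps the cyclin B and CDK1 complex inactive. PDE3A is the main oocyte enzyme that breaks cyclic AMP down. It is inhibited by cyclic GMP that enters from granulosa cells through gap junctions built from connexin 37, the product of Gja4.

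Cyclic AMP also acts on transcription through the cyclic AMP response element (CRE), whose full form is TGACGTCA and whose shorter core is TGACG. RefSeq start-site windows (GRCm38.p6, 250 bases before to 50 after each start) were searched for these letters on both strands; 9 of the 10 genes had a window, and Pde3a had none. The full element was found in Prkar1a alone among the 9, in 2 overlapping windows of its alternative starts, against 1.79% of 32851 windows of all genes. The core, which each full element also holds on both strands, lay in 9 of 19 windows of these genes (47.4%), 3 of them of Prkar1a, and in 20.8% of all windows. The core holds a CG, and start-site windows differ in CG content: among windows with at least 10 CG, it lay in 8 of 12 windows of these genes (66.7%) and in 33.1% of all. Windows of 1 gene can overlap, and a match is only a match of letters. The core lay in 4 of the 5 genes that changed between the genotypes and in 3 of the 4 others with a window (Adcy9, Prkaca and Gja4), so its presence did not set the changed genes apart. The stretches below come from the genes that changed between the genotypes and had a match, are read along the gene, and carry the match in capitals.

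Prkar1a, full element, chr11:109650889-109650918, + strand: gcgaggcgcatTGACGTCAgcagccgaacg
Prkacb, core, chr3:146813031-146813060, - strand: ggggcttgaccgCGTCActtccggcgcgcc
Prkar2a, core, chr9:108692127-108692156, + strand: cgcggccgcgtgCGTCAcaacccgggcgcc
Gpr3, core, chr4:133212559-133212588, - strand: ctgggcttctggCGTCAccaaaccggtggc

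Measured from the annotated start, the match began 49 bases before it in Prkar1a, 102 in Prkacb, 4 in Prkar2a and 40 in Gpr3, and a further Gpr3 core began 196 bases before. The Prkar1a element also lies 38 bases after another annotated start of that gene. Gpr12, which also changed, had no match in its 2 windows.

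Recovered reads per library, in units of 1e6, numbered 33.5 to 65.5 in WT and 47.4 to 74.1 in Nat10 cKO. The targeted gene Nat10 measured 42.1, 50.1 and 39.3 reads per 1e6 reads (CPM, library sizes scaled by TMM) in WT and 5.72, 5.97 and 6.32 CPM in Nat10 cKO, so its level matched the labels. All 12 oocyte markers were detected; Gdf9, Bmp15, Zp2 and Zp3 were the most abundant, and the list summed to 21157 to 21655 CPM in WT and 26212 to 31597 CPM in Nat10 cKO, with 9 genes higher and 1 lower. Granulosa markers summed to 419 to 471 and 406 to 441 CPM (2 higher and 3 lower of 15 tested), theca, stroma and endothelium markers to 132 to 139 and 127 to 146 CPM (1 and 2 of 8), and blood markers to 51.2 to 55.9 and 41.2 to 44.6 CPM (0 and 1 of 4). These sums rest mostly on Serpine2, Cyp19a1, Nr5a2 and Gata4, on Pecam1, Cnn1, Myh11 and Tek, and on C1qb, H2-Aa, Cd68 and Csf1r. Of the tested oocyte markers 83.3% were called, against 35.0% of all tested genes (limma, adjusted p under 0.05). The shares called in the other 3 lists, in the order given, were 33.3%, 37.5% and 25%. The defining granulosa genes Amh and Foxl2 did not exceed 0.138 and 0.187 CPM. The part of these markers in the results below was not tested.

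Of the 10 arrest genes, 5 differed between the genotypes. The receptor genes Gpr3 and Gpr12 and the regulatory subunit gene Prkar2a fell in Nat10 cKO oocytes, while the regulatory subunit gene Prkar1a and the catalytic subunit gene Prkacb rose. The cyclases Adcy3 and Adcy9, Pde3a, Prkaca and Gja4 did not pass the test. That is 2 of 10 higher and 3 of 10 lower, where 17.4% of all tested genes were called higher and 17.6% lower by limma (adjusted p under 0.05), 35.0% together. The median log2 change of the 10 genes was -0.08, against 0.00094 over all tested genes. All 5 called genes had groups that did not overlap, as 24.1% of tested genes did upward and 24.2% downward. The edgeR test on the same reads called the same numbers, 2 higher and 3 lower, against 33.8% of all genes in either direction. Each library pooled 10 oocytes, and CPM is a share of its reads, so a fall in CPM need not be a fall in RNA per oocyte. For cells of other types, fewer cells and less RNA per cell cannot be told apart.

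**Figure D1:**
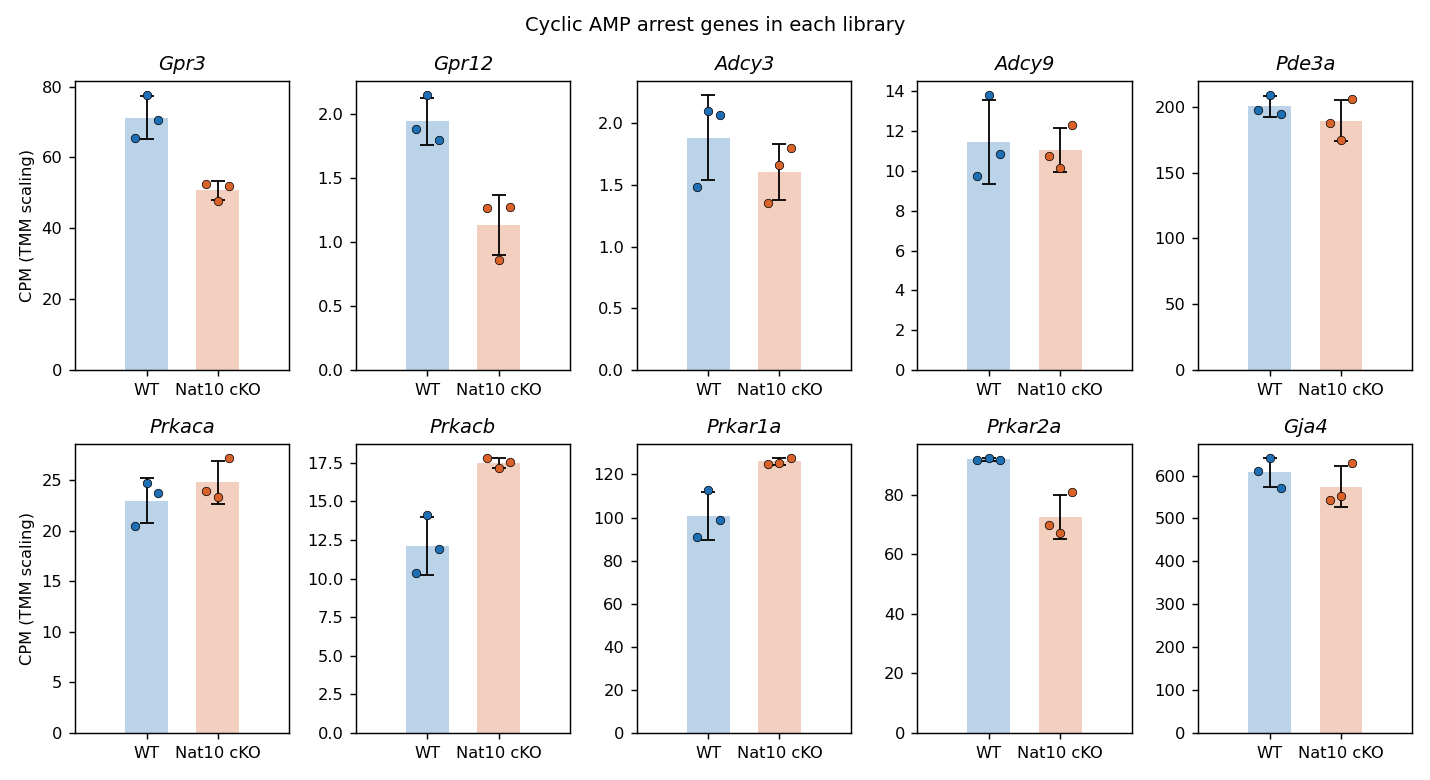
Level of each gene in CPM with TMM scaling (vertical axes, each from 0) for WT and Nat10 cKO; points are libraries, bars are means and whiskers are SD of 3 libraries. Gpr3, Gpr12 and Prkar2a lie lower and Prkacb and Prkar1a higher in all 3 Nat10 cKO libraries than in any WT library, and the other 5 genes overlap.

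Levels of different genes were compared as CPM per kilobase of annotated exon (RPKM, TMM scaling). Gja4 was the most abundant by this measure, at 361 ± 20.5 RPKM in WT (SD, n = 3) and 341 ± 27.9 in Nat10 cKO. In WT, Gpr3 (26.0 ± 2.23), Prkar1a (23.3 ± 2.55), Pde3a (15.7 ± 0.609), Prkar2a (14.4 ± 0.0772) and Prkaca (9.24 ± 0.891) followed. Gpr3 and Prkar1a were the only neighbours in the WT order whose libraries overlapped. In Nat10 cKO their order was turned, with Prkar1a at 29.2 ± 0.362 and Gpr3 at 18.6 ± 0.945 RPKM and no overlap. Adcy9 (2.21 ± 0.405), Prkacb (1.38 ± 0.213), Gpr12 (0.775 ± 0.0730) and Adcy3 (0.301 ± 0.0553) were the lowest in WT. The order depends on the length used: with the longest single transcript, Prkacb doubled to 2.79 RPKM and passed Adcy9 in WT, Prkar1a (28.7) passed Gpr3 (28.3), and Prkar2a (18.5) passed Pde3a (16.3).

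**Figure D2:**
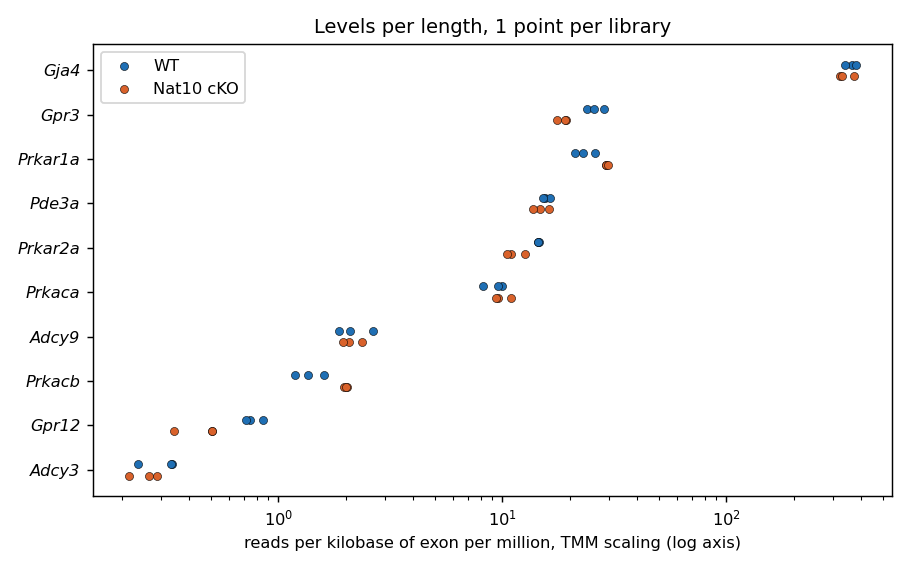
RPKM on a log axis, 1 point per library, for the 10 genes in order of their WT mean. Gja4 lies above 322 RPKM in every library and Adcy3 below 0.336.

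The receptors were examined first. Gpr3 (chromosome 4, 133209340 to 133212536, GRCm38) measured 65.5, 77.7 and 70.4 CPM in WT and 52.5, 47.8 and 51.9 CPM in Nat10 cKO. Every Nat10 cKO library lay below every WT library, and Gpr3 fell by 0.48 on the log2(CPM + 1) scale (SE 0.099, adjusted p = 0.00267), to 0.717 times the WT level. Its call held without any 1 library (adjusted p from 0.00235 to 0.0179). Exons of Gpr3 overlap Cd164l2 on the opposite strand, which was abundant at 504 to 546 CPM in WT and 474 to 534 CPM in Nat10 cKO, and reads of the shared stretch cannot be told apart without strand.

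Gpr12 (chromosome 5, 146582398 to 146585239) was far less abundant, with 61, 75 and 116 reads in the WT libraries and 95, 41 and 92 in the Nat10 cKO libraries. These were 1.89, 2.15 and 1.80 CPM in WT and 1.27, 0.861 and 1.27 CPM in Nat10 cKO, without overlap. Gpr12 fell by 0.47 on the log2(CPM + 1) scale (SE 0.152, adjusted p = 0.0287). At so few reads the call was fragile: leaving out any WT library, or replicate 1 or 2 of Nat10 cKO, ended it (adjusted p from 0.0511 to 0.129), as did testing with no filter (0.0749). The size also depends on the pseudocount, since edgeR gave a log2 change of -0.77 (adjusted p = 0.0409).

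The cyclases turn ATP into cyclic AMP. Adcy9 (chromosome 16, 4287529 to 4420498) measured 9.73, 13.8 and 10.8 CPM in WT and 10.7, 10.1 and 12.3 CPM in Nat10 cKO. Adcy3 (chromosome 12, 4133103 to 4213525) measured 1.48, 2.10 and 2.07 CPM in WT and 1.35, 1.66 and 1.80 CPM in Nat10 cKO. The groups overlapped for both. The log2 change of Adcy9 was -0.04 (95% interval -0.37 to 0.29, adjusted p = 0.859) and that of Adcy3 was -0.14 (-0.48 to 0.20, adjusted p = 0.511). Exons of Adcy3 overlap the abundant Cenpo on the opposite strand (164 to 196 CPM over all libraries), so its low level is uncertain.

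Pde3a, the enzyme that removes cyclic AMP, and Gja4, the connexin, held the 2 highest read shares of the set. Pde3a (chromosome 6, 141249269 to 141507448) measured 197, 209 and 194 CPM in WT and 188, 174 and 206 CPM in Nat10 cKO. Its log2 change was -0.08 (95% interval -0.27 to 0.11, adjusted p = 0.503). Gja4 (chromosome 4, 127311421 to 127314039) measured 611, 640 and 571 CPM in WT and 543, 551 and 628 CPM in Nat10 cKO, with a log2 change of -0.08 (-0.27 to 0.11, adjusted p = 0.492). Exons of Pde3a overlap Gm28523 on the opposite strand, which did not exceed 4.74 CPM. For both genes the highest Nat10 cKO library, replicate 3, lay within the WT range. With TMM scaling, these intervals leave out the point estimate of Gpr3 (-0.48). Their lower ends (-0.274 and -0.270) still overlap the 95% interval of Gpr3 (-0.694 to -0.265), and the difference between the genes was not tested.

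The protein kinase A subunits did not move as a block. Among the regulatory subunits, which bind cyclic AMP and hold the kinase inactive without it, Prkar1a encodes the type I alpha and Prkar2a the type II alpha form; type II forms are the ones chiefly tethered by A-kinase anchoring proteins. Prkar1a (chromosome 11, 109649405 to 109669656) measured 90.9, 113 and 98.7 CPM in WT and 125, 126 and 128 CPM in Nat10 cKO, and rose by 0.33 on the log2 scale (SE 0.096, adjusted p = 0.0179). Prkar2a (chromosome 9, 108689314 to 108750436) measured 91.8, 92.6 and 91.7 CPM in WT and 70.0, 67.1 and 81.0 CPM in Nat10 cKO, and fell by 0.34 (SE 0.096, adjusted p = 0.0147). Neither pair of groups overlapped, and the changes were near equal in size and opposite in direction. Both calls depend on single libraries: for Prkar1a the adjusted p was 0.0851 and 0.0698 with replicates 1 and 3 of WT left out and 0.0569 with replicate 1 of Nat10 cKO left out, and for Prkar2a it was 0.0579 with replicate 3 of WT left out and 0.0847 and 0.0640 with replicates 1 and 2 of Nat10 cKO left out.

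Of the catalytic subunits, Prkacb (chromosome 3, 146729574 to 146812990) rose and Prkaca (chromosome 8, 83972993 to 83996443) did not pass. Prkacb measured 10.4, 14.1 and 11.9 CPM in WT and 17.8, 17.2 and 17.5 CPM in Nat10 cKO. All 3 Nat10 cKO libraries lay above the WT libraries, and the rise was 0.51 on the log2 scale (SE 0.135, adjusted p = 0.0110), or 1.42-fold, and held without any 1 library (adjusted p from 0.00320 to 0.0490). Prkaca measured 20.5, 24.7 and 23.8 CPM in WT and 23.9, 23.3 and 27.3 CPM in Nat10 cKO, with a log2 change of 0.11 (95% interval -0.15 to 0.37, adjusted p = 0.519).

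The quotient of 2 genes in the same library is free of any scaling factor, and 5 such ratios were compared by an exact two-sided permutation test, in which 3 against 3 libraries cannot give a p below 0.1. Prkar1a reads per Prkar2a read numbered 0.990, 1.22 and 1.08 in WT and 1.79, 1.87 and 1.58 in Nat10 cKO, a 1.60-fold difference (exact permutation p = 0.1, adjusted p = 0.125). The 2 genes were thus read about equally in WT, and Prkar1a exceeded Prkar2a in every Nat10 cKO library. Since Prkar1a rose and Prkar2a fell without overlap, their ratio had to separate the groups. Prkaca reads per Prkacb read numbered 1.97, 1.75 and 2.00 in WT and 1.34, 1.36 and 1.55 in Nat10 cKO (exact permutation p = 0.1, adjusted p = 0.125). Pde3a reads per Gpr3 read numbered 3.01, 2.69 and 2.76 in WT and 3.58, 3.65 and 3.96 in Nat10 cKO, a 1.32-fold difference with the same exact p and adjusted p. Gpr3 to Gpr12 also did not overlap, at 34.8 to 39.1 in WT and 40.8 to 55.4 in Nat10 cKO (exact permutation p = 0.1, adjusted p = 0.125). Adcy3 to Adcy9 overlapped, at 0.152 to 0.191 and 0.126 to 0.164 (exact permutation p = 0.4, adjusted p = 0.4).

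**Figure D3:**
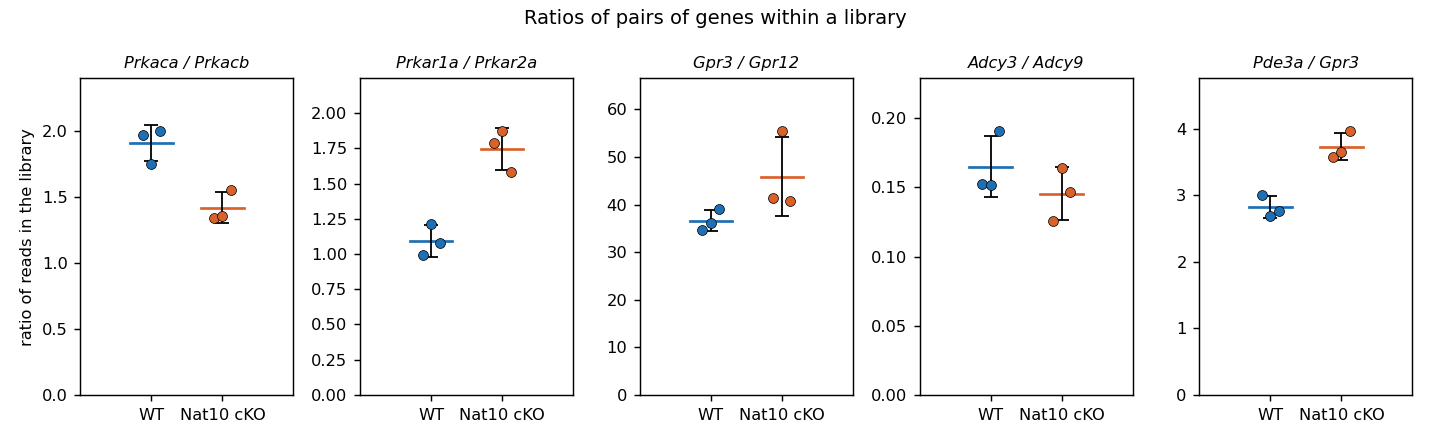
Ratio of the reads of 2 genes in each library (vertical axes, each from 0); points are libraries, lines are means and whiskers are SD of 3 libraries. Prkar1a to Prkar2a is at most 1.22 in WT and at least 1.58 in Nat10 cKO, and only the ratio of the 2 cyclases overlaps between the genotypes.

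Summed per length, with no test, the regulatory subunits Prkar1a and Prkar2a reached 35.4 to 40.6 RPKM in WT and 39.6 to 42.3 in Nat10 cKO, and the catalytic subunits Prkaca and Prkacb at most 11.5 in WT and at least 11.3 in Nat10 cKO. These sums hold the named arrest genes only and are not those of the whole kinase. They leave out the regulatory subunit gene Prkar2b and the related catalytic subunit gene Prkx, both described below. Mean levels, WT first, went from 47.5 to 26.6 CPM for Prkar2b and from 10.1 to 16.7 CPM for Prkx. Sums with them included were not made. Regulatory and catalytic level here mean the sums as given. The regulatory sum exceeded the catalytic sum 3.41- to 3.76-fold in WT and 3.26- to 3.49-fold in Nat10 cKO, which overlap. Within the sums, Prkar1a made up 59.4% to 64.2% of Prkar1a and Prkar2a together in WT and 70.0% to 73.4% in Nat10 cKO. Prkacb made up 12.4% to 13.9% and 15.4% to 17.5% of Prkaca and Prkacb together. Both shares separated the groups, which adds nothing new, since each share is set by the read ratio of the same genes given above. These values depend on the length used. With the longest single transcript, Prkacb made up 20.8% to 23.0% of the catalytic level in WT and 25.2% to 28.1% in Nat10 cKO, and the regulatory to catalytic ratio was 3.53 to 3.89 in WT and 3.29 to 3.47 in Nat10 cKO, which no longer overlap.

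The calls depend on how libraries are scaled. The deposited values carry 1 factor per library and no division by depth, and on them the median of all tested genes moved by 0.24 on the log2 scale. As deposited, 0 of the 10 genes passed, against 7.97% of all tested genes in limma (1207 higher and 255 lower); Prkacb and Prkar1a had log2 changes of 0.84 and 0.68 (adjusted p = 0.204 and 0.331), and Gpr3, Gpr12 and Prkar2a of -0.12, -0.24 and 0.016 (0.888, 0.652 and 0.987). Set against the moved median, these 5 changes were 0.60, 0.44, -0.37, -0.48 and -0.23, in the directions found with TMM scaling. The 2 scales differ only by 1 factor per library, so these shared directions are largely built in and add no support. On shares of reads multiplied by the deposited factors, where the median moved by -0.15, Gpr3 and Gpr12 fell (log2 changes of -0.69 and -0.61, adjusted p = 0.0202 and 0.0247). On that scale 2 of the 10 were lower, against 16.5% of all genes, and 0 were higher, against 5.60%; all genes numbered 1027 higher and 3028 lower.

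**Figure D4:**
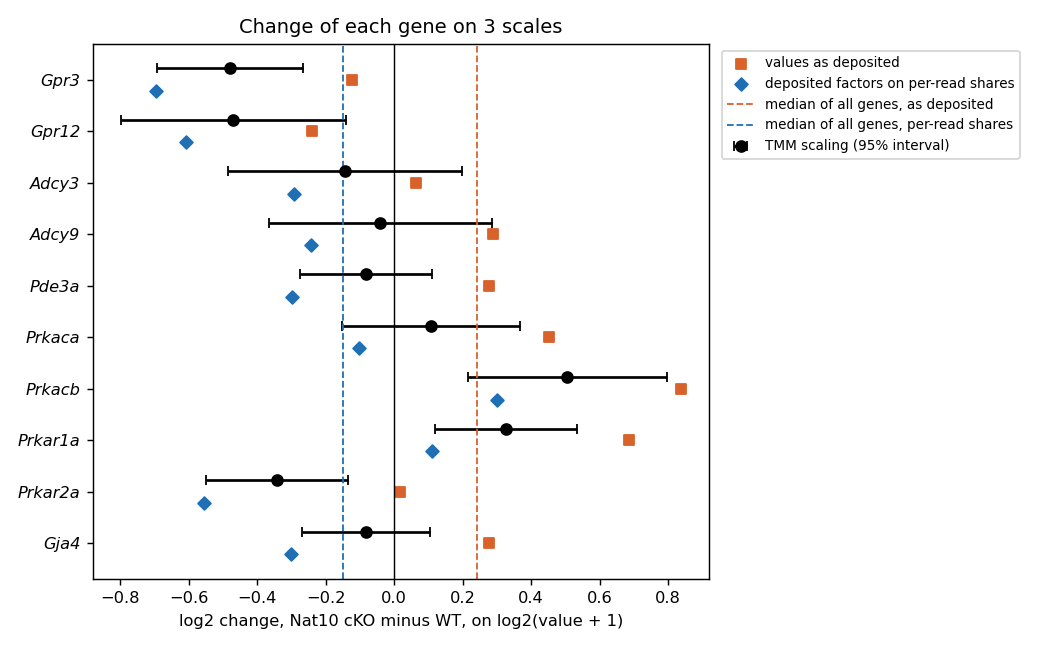
Log2 change (Nat10 cKO minus WT, on log2(value + 1)) of each gene with TMM scaling (circles, whiskers are 95% intervals), as deposited (squares) and on shares of reads multiplied by the deposited factors (diamonds); dashed lines are the medians of all tested genes, 0.24 and -0.15. The 3 series run in parallel, and Prkar2a lies at 0.016 as deposited but at -0.34 with TMM scaling.

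The rest of the pathway was followed in 8 lists chosen by function. Of 103 tested genes, 20 were higher and 20 lower, 38.8% in all beside 35.0% of all tested genes, with a median log2 change of -0.07. As deposited 4 were higher and 2 lower, on shares of reads with the deposited factors 4 and 20. Without WT replicate 3, 13 were higher and 17 lower, and without Nat10 cKO replicate 2, 16 and 14.

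Of 6 other protein kinase A genes, 2 rose and 1 fell (median log2 change 0.22). Prkar2b, the type II beta regulatory subunit, measured 53.5, 39.6 and 49.4 CPM in WT and 28.2, 20.5 and 31.0 CPM in Nat10 cKO and fell by 0.82 (adjusted p = 0.00133), so both type II genes were lower. Pkib, a protein inhibitor of the free catalytic subunit, measured 14.8, 15.8 and 15.3 CPM in WT and 33.5, 44.8 and 25.7 CPM in Nat10 cKO. It rose by 1.10 (adjusted p = 0.000344) and also passed as deposited (log2 change 1.44, adjusted p = 0.00865). Prkx, a related cyclic AMP-dependent catalytic subunit, rose by 0.68, from 10.1 ± 1.81 to 16.7 ± 1.40 CPM (SD, n = 3), and Pkig, another inhibitor, had a log2 change of 0.21 (adjusted p = 0.129).

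Among heterotrimeric G protein genes, 2 of 15 rose and 4 fell (median -0.05). Gnai1, an inhibitory alpha subunit, fell by 1.20 without overlap, from a mean of 32.5 to 13.9 CPM, and Gnaz, of the same inhibitory class, fell by 0.61. The class did not move one way: Gnai3, its most abundant gene here, rose by 0.36, from 140 ± 9.15 to 180 ± 14.0 CPM (adjusted p = 0.00945), and Gnai2 had a log2 change of -0.30 (adjusted p = 0.112). Rgs2, a regulator of G protein signalling, fell by 0.35 from a WT level of 1279 CPM, a direction that was not kept as deposited (log2 change 0.013, adjusted p = 0.989). Gnb1, a beta subunit, rose by 0.36. Gnas, which encodes the stimulatory alpha subunit that GPR3 uses, averaged 1.77 CPM in the WT and 1.44 CPM in the Nat10 cKO libraries (log2 change -0.19, adjusted p = 0.354). Exons of Gnas overlap Nespas and Gm20721 on the opposite strand, and the counting of shared reads is not known here, so this level may not be that of the transcript.

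The list of other adenylyl cyclases, which also holds Cap1, the gene of a cyclase-associated protein that binds actin, had 1 fall and 0 rises among 6 tested genes (median 0.11). The fall was in Adcy10, the soluble cyclase, from 3.76 ± 0.559 to 1.68 ± 0.443 CPM (log2 change -0.84, adjusted p = 0.00250). Adcy5, Cap1 and Adcy1 had log2 changes of -0.29, 0.36 and 0.39 and did not pass (adjusted p = 0.0921, 0.185 and 0.229).

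Of 17 other phosphodiesterase genes, 3 rose and 3 fell (median -0.10). Pde3b, the only other member of the PDE3 class, measured 143, 96.1 and 123 CPM in WT and 75.3, 57.1 and 85.2 CPM in Nat10 cKO, without overlap, and fell by 0.73 (adjusted p = 0.00302). Its paralog Pde3a did not pass, as given above; the difference between the 2 changes was not tested. Pde7a, which is specific for cyclic AMP, rose from 0.592 ± 0.278 to 2.72 ± 0.357 CPM. Its change was 1.24 on the log2(CPM + 1) scale (limma adjusted p = 0.000198), and edgeR gave a log2 change of 2.15. Pde9a, specific for cyclic GMP, fell by 0.77. Pde6d fell by 0.81, from 303 ± 13.9 to 172 ± 9.62 CPM; despite its name it encodes a carrier of lipid-modified proteins and not a cyclic nucleotide hydrolase.

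A-kinase anchoring proteins tether the regulatory subunits to places in the cell, and of 18 tested genes in their list 4 rose and 1 fell (median -0.05). The list also holds Pole4, a DNA polymerase subunit gene not known as an anchoring protein, which did not pass. Akap6 fell by 1.41, from 7.61 ± 1.47 to 2.28 ± 0.847 CPM, and passed as deposited (adjusted p = 0.0294). Rab32, a small GTPase that also binds the regulatory subunit, and Cbfa2t3 rose by 0.78 and 0.61. The rise of Map2 (0.34, adjusted p = 0.0397) missed the threshold with no filter (0.0730) and when any library other than replicate 2 of WT was left out (0.0573 to 0.164).

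For the follicle's cyclic GMP route, 2 of 9 tested genes rose and 2 fell (median 0.05). The cyclic GMP-dependent kinases were both lower: Prkg2 measured 7.69, 6.63 and 9.15 CPM in WT and 1.20, 0.462 and 1.78 CPM in Nat10 cKO and fell by 2.08 (adjusted p = 4.00e-05), and Prkg1 fell by 0.52. Prkg2 also passed as deposited (log2 change -1.77, adjusted p = 1.93e-05), and edgeR gave it a log2 change of -2.74. Impdh2, which acts in guanine nucleotide synthesis, and Abcc4, an exporter of cyclic nucleotides, rose by 1.15 and 0.40. Nppc and its receptor gene Npr2, which drive the route in granulosa and cumulus cells, did not exceed 0.280 and 0.378 CPM in any library.

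Of 12 tested connexin and pannexin genes besides Gja4, 1 rose and 2 fell (median -0.15). Panx1 rose by 0.45, from 42.7 ± 4.24 to 58.9 ± 9.73 CPM, and the low Gja5 and Gjb6 fell by 0.81 and 0.45. The calls of Panx1 (adjusted p = 0.0157) and Gjb6 (0.0409) each ended when single libraries were left out, 4 of the 6 for Panx1 and 5 of the 6 for Gjb6. Gja3 had a log2 change of -0.41 (adjusted p = 0.0725). Gja1, the connexin of granulosa cells, measured 0.865, 0.746 and 1.09 CPM in WT and 4.60, 0.840 and 9.46 CPM in Nat10 cKO (adjusted p = 0.0728; 9.46e-05 as deposited). Inha, another granulosa gene, was likewise highest in Nat10 cKO replicates 1 and 3, at 4.84 and 9.21 CPM beside 1.67 to 2.48 CPM in the other libraries. Slc38a3 (0.321 and 0.636 CPM) and Foxl2 (0.187 and 0.138 CPM), both near the floor, were also highest in Nat10 cKO replicates 1 and 3. Inhba, Inhbb and Cyp19a1 did not follow and were called lower in Nat10 cKO. Wt1, the other marker called higher, was highest in Nat10 cKO replicate 2, at 0.924 CPM. Without Nat10 cKO replicate 3, all 5 called genes of the arrest set kept their call, and without replicate 1, Gpr3 and Prkacb did. Calls of Gpr12, Prkar1a and Prkar2a also ended when single WT libraries were left out. A fit without replicate 1 or 3 of Nat10 cKO still held the other of them, so the part of granulosa RNA in these calls was not tested.

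Effectors of cyclic AMP and the regulators of cell cycle entry that lie below protein kinase A had 6 rises and 6 falls among 20 genes (median -0.05). Crem, a transcription factor that binds the CRE, rose by 0.72, from 6.13 ± 0.264 to 10.9 ± 2.21 CPM, and Wee1, an inhibitory kinase of CDK1, rose by 0.66. Ccnb3, a cyclin gene, and Ywhah, a 14-3-3 protein gene, fell by 0.67 and 0.41. Wee2 and Cdc25b, the oocyte kinase and phosphatase through which protein kinase A acts on CDK1, had log2 changes of 0.18 and 0.27 (adjusted p = 0.174 and 0.0613).

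**Figure D5:**
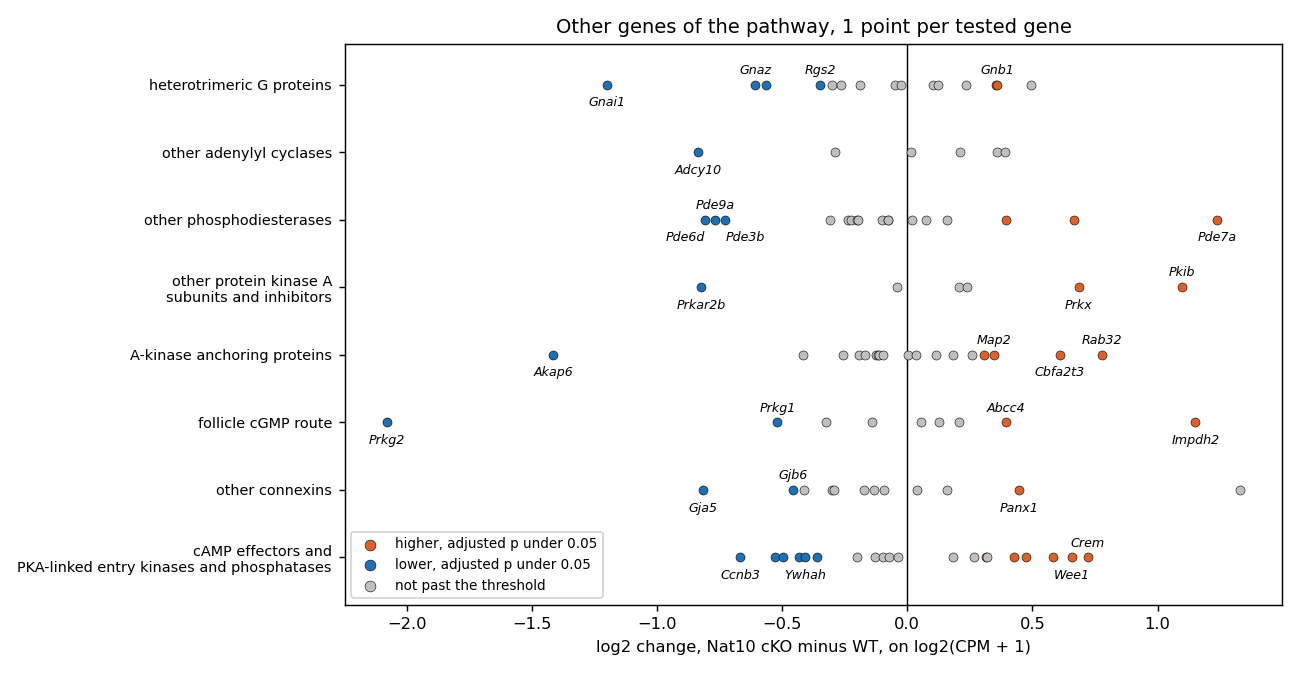
Log2 change with TMM scaling (horizontal axis, on log2(CPM + 1)) of each tested gene of the 8 wider lists, 1 point per gene, coloured by direction where the limma adjusted p was under 0.05; named are called genes among the 4 with the smallest p of each list. Called genes lie on both sides of 0 in every list except the other cyclases, and Prkg2 at -2.08 lies farthest from 0. Cap1 is drawn with the cyclases and Pole4 with the anchoring proteins.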

How the data were processed

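The submitters' processing notes name mm10 as the build and, as tools, STAR 2.7.10a, Trim Galore 0.6.7 and featureCounts; settings, annotation and strand use are unknown here. The deposited column of WT replicate 1 holds whole read counts per gene. The other 5 deposited columns hold a scaled signal, whole reads times 1 factor (1.38 and 0.945 in WT replicates 2 and 3, 0.920, 0.908 and 0.932 in Nat10 cKO replicates 1, 2 and 3). An ERCC spike-in (0.2 µl of a 1000-fold dilution) was added for calibration per the labels' series text; how the factors were made is not stated. For the test as deposited, all columns were brought to the size of CPM by 1 common constant. Dividing each column by its smallest value above 0 gave whole reads (within 0.001) for 100% of values.

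Genes kept by filterByExpr (minimum count 10) were tested across all genes with limma 3.58.1 (trend, robust) on log2(CPM + 1) with TMM factors from edgeR 4.0.16, in R 4.3.3, two-sided, with Benjamini-Hochberg adjustment over 18353 genes and a threshold of 0.05; the pseudocount of 1 CPM understates changes of low genes. The edgeR quasi-likelihood test on recovered reads called 6202 genes. DESeq2 1.42.0, other scalings, filters, a pseudocount of 0.25, a replicate block and leaving out each library were alternatives. The limma and edgeR tests were also run on simulated counts with known folds. limma recovered 38.8% of 1.5-fold, 56.7% of 2-fold and 89.4% of 4-fold changes, and edgeR 37.3%, 56.7% and 90.9%. Of genes simulated without change, limma called 0.0338% and edgeR 0.045%. A gene that did not pass can therefore still have changed. Far fewer genes were changed in the simulation than were called here, so recovery may differ. Positions and exon lengths are from GENCODE M21 (GRCm38).

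The members and lists were chosen with earlier results of these data known. Named are the 10 genes, Nat10, the 4 genes of each wider list with the smallest p, and the 4 most abundant of each marker list. Gnas, Gnai2, Gnai3, Pole4, Wee2, Cdc25b, Gja1, Inha, Amh, Foxl2, Nppc, Npr2 and the overlapping genes were named after their values were seen. The same holds for Inhba, Inhbb, Slc38a3 and Wt1.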

Additional observations from a re-analysis of the deposited data

How the results depend on the processing

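Among the 10 arrest genes, the 2 rises and 3 falls were also found with median-of-ratios factors, library sizes only, a minimum count of 50, a pseudocount of 0.25, edgeR and DESeq2. As deposited, 0 rose and 0 fell; on per-read shares with the deposited factors 0 rose; with no filter 1 fell, Gpr3. Leaving out 1 library at a time gave 1 to 2 rises and 1 to 3 falls. Over all genes, 3190 rose and 3232 fell, against 1207 and 255 as deposited and 1027 rises on per-read shares, and 2107 to 3431 rises and 2201 to 3335 falls with 1 library left out. For the wider lists, rises were 4 as deposited and 4 on per-read shares, falls 2 as deposited, with 13 to 24 rises and 14 to 24 falls with 1 library left out. Among called genes of the 10, the wider lists and the marker lists, 3 changes turned sign as deposited, Prkar2a (0.016), Rgs2 (0.013) and the granulosa marker Cyp19a1 (0.031). As deposited, the median of all tested genes lay at 0.24. Set against that median, these changes were -0.23, -0.23 and -0.21. All 5 ratios kept their direction without any 1 library.

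Replicate numbers are shared by the groups, but same-numbered libraries did not deviate together (correlations of 0.0788, 0.0747 and -0.120 for numbers 1, 2 and 3; WT replicate 3 correlated best with Nat10 cKO replicate 1, at 0.237). With the replicate number as a block, 3069 genes rose and 3164 fell, and 2 and 3 of the 10 genes. Depth limits Gpr12 and Adcy3 most, with 41 to 133 reads per library.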
